A study of Homo sapiens with 18 samples.

Results

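The comparison described here sets the 3 arrays of SK-N-BE(2) cells that received the ERK5 hairpin shERK5-5 against the 3 arrays of the same cells that received the control hairpin shNSC, over all 21448 probes. These 6 arrays were taken by their titles out of 18. SK-N-BE(2) is an established human neuroblastoma line that carries amplified MYCN. For each group 250000 cells per well were seeded with 1.5 ml of lentiviral supernatant made in HEK-293T cells from a pLKO plasmid, and total RNA was taken 72 hours later in biological triplicates. The control cells therefore carried a pLKO virus with the shNSC hairpin, and both groups grew in Iscove's medium with serum and an insulin, transferrin and selenium supplement. The remaining arrays hold SK-N-BE(2) cells with another ERK5 hairpin, shERK5-4, and the neuroblastoma line CHLA-90 with the same 3 hairpins. The question is what changes in the transcriptome of a MYCN-amplified line after ERK5 silencing with one of the hairpins.

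ERK5, encoded by MAPK7, is a mitogen-activated protein kinase with a long C-terminal tail. It is phosphorylated by the dual-specificity kinase MEK5, encoded by MAP2K5, which is itself activated by the kinases MEKK2 and MEKK3. Active ERK5 phosphorylates transcription factors of the MEF2 family and the kinase SGK1, and it is best known for roles in proliferation, in growth factor signalling and in the endothelium.

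Array medians lay between 5.63 and 5.69 on the log2 scale. The correlation of signals across probes was 0.994 to 0.996 between arrays of a group and 0.985 to 0.989 between arrays of different groups. Sympathetic neuroblastoma markers were present in the control cells. MYCN lay at the 99.9th percentile of probes, ISL1 at 97.2, PHOX2A at 93.3 and GATA3 at 91.4. DBH, the enzyme that makes noradrenaline, was at the 43rd percentile with a mean log2 signal of 4.87.

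At a limma Benjamini-Hochberg adjusted p below 0.05, 2752 probes differed between shERK5-5 and shNSC, which is 12.8% of those tested. Of these, 1450 were higher (6.76%) and 1302 lower (6.07%), and these shares are the reference for the calls in the gene groups below. They include dim probes and probes without a gene symbol, while a listed gene is represented by its brightest probe. The reference is therefore not matched to the lists. With the dimmest 25% of probes left out 2908 were called, a larger share of fewer probes. The median called change was 0.86 on the log2 scale for the higher probes and -0.91 for the lower ones. Changes beyond 2 on the log2 scale were called for 57 higher and 56 lower probes. Over all probes the median change was -0.0033. An unadjusted limma p below 0.05 was reached by 4829 of the 21448 probes in either direction, the reference for unadjusted counts below. All 3 shERK5-5 arrays lay above all 3 shNSC arrays for 15.7% of probes and below them for 14.2%. The gene lists below were chosen with earlier results of these data known, so their counts are descriptions.

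MAPK7 itself was lower with shERK5-5. It read 6.99, 6.46 and 6.90 on the shNSC arrays and 6.14, 6.02 and 6.28 on the shERK5-5 arrays. The groups did not overlap, and every silenced array lay under the lowest control. The difference of -0.64 ± 0.19 (SE, 3 arrays against 3) left 64.3% of the control signal (limma adjusted p = 0.0319). An exact two-sided permutation test of the 6 arrays gave p = 0.1, the smallest that 3 against 3 allows. Leaving out single arrays gave log2 changes from -0.80 to -0.53. The adjusted p was then 0.149 when control replicate 1 was dropped, 0.110 for control replicate 3, 0.0833 for silenced replicate 1 and 0.123 for silenced replicate 2, so the call did not survive the loss of any of these. ERK5 protein was not measured here.

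Of 16 measured genes of the ERK5 cascade and its effectors, 6 were called higher, 2 lower and 8 neither, and their median change was 0.14, from 0.13 without shNSC replicate 1 to 0.23 without shNSC replicate 3. SGK1, a kinase that ERK5 phosphorylates, rose most. It read 11.12, 11.17 and 10.85 with shNSC and 13.04, 13.08 and 12.94 with shERK5-5, a rise of 1.97 ± 0.18 or 3.93-fold (adjusted p = 9.95e-08). MEF2A, a transcription factor substrate of ERK5, fell from 11.06, 11.32 and 11.03 to 10.11, 10.25 and 9.92 (-1.04 ± 0.19, adjusted p = 0.000562). For both genes the groups were well apart. MAP2K5, which encodes the kinase upstream of ERK5, was 0.77 ± 0.23 higher (adjusted p = 0.0277), a call lost without shNSC replicate 2 (0.108) or 3 (0.0832), or shERK5-5 replicate 1 (0.126) or 2 (0.0573). The count of higher members was 3 without shNSC replicate 1, 2 or 3 or shERK5-5 replicate 3, and 2 without shERK5-5 replicate 1. The count of lower members was 1 without shNSC replicate 1 or 3 or shERK5-5 replicate 1 or 2.

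The largest rise was that of DYNLRB1, a light chain of the dynein motor. Its signals were 8.52, 8.75 and 8.70 with shNSC and 13.42, 13.26 and 13.37 with shERK5-5, a 25.9-fold increase (4.69 ± 0.18, adjusted p = 2.33e-13). MFAP4, a glycoprotein of extracellular microfibrils, went from 10.69, 10.65 and 10.46 to 14.29, 14.38 and 14.65 (14.3-fold). TYRP1, an enzyme of melanin synthesis, went from 5.48, 5.18 and 5.69 to 9.14, 9.34 and 9.04 (13.2-fold). The spread within each group was a small part of these differences. ABCA12, a lipid transporter, rose 9.27-fold and TPBGL rose 8.09-fold. NECTIN1, an adhesion molecule of the immunoglobulin family, rose 7.96-fold although its control arrays were spread from 7.85 to 8.98. KDELR3, a receptor that returns resident proteins to the endoplasmic reticulum, rose 7.93-fold. SPTSSB, a small subunit of the enzyme that starts sphingolipid synthesis, rose 7.55-fold, and SPARCL1, a secreted matricellular protein, rose 7.28-fold. The remaining genes among the 15 largest rises were ATG4D (6.73-fold), a protease of autophagosome formation, TMEM45A (6.45-fold), CMTM3 (6.32-fold), the pacemaker channel HCN2 (6.22-fold), the metallothionein MT1L (6.01-fold) and CHAC1 (5.72-fold), an enzyme that degrades glutathione.

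STARD7, which carries phosphatidylcholine to mitochondria, read 13.72, 13.82 and 13.79 with shNSC and 10.11, 10.40 and 10.18 with shERK5-5. That left 8.56% of the control signal (-3.55 ± 0.18, adjusted p = 2.39e-11). GLO1, the glyoxalase that detoxifies methylglyoxal, fell from 14.85, 14.92 and 14.75 to 11.35, 11.39 and 11.54, or to 9.39%. Both genes were abundant in control cells and tight among replicates. TSN, which encodes the nucleic acid binding protein translin, also fell to 9.39%, from 11.15, 11.51 and 11.28 to 7.45, 8.09 and 8.16. TGFBR1, the type I receptor for TGF-beta, went from 10.02, 10.05 and 9.75 to 6.82, 6.70 and 6.85, or 11.3% of control. MTMR2, a phosphoinositide phosphatase, was left at 11.6%, as was B4GALT6, which makes lactosylceramide. The others among the 15 largest falls were FBXO21 (12.3%), the lysophospholipid acyltransferase LPGAT1 (12.6%), MRFAP1 (13.1%), TMEM64 (13.1%), the palmitoyltransferase ZDHHC20 (14.1%), ANKRD1 (14.5%), GPAM (14.7%), GLUD1 (15.7%) and MINPP1, which fell by 2.73 on the log2 scale. GPAM catalyses the first step of glycerolipid synthesis at mitochondria, MINPP1 is an inositol phosphate phosphatase, and GLUD1 is mitochondrial glutamate dehydrogenase. ANKRD1 is a widely used target gene of the YAP coactivator.

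**Figure D1:**
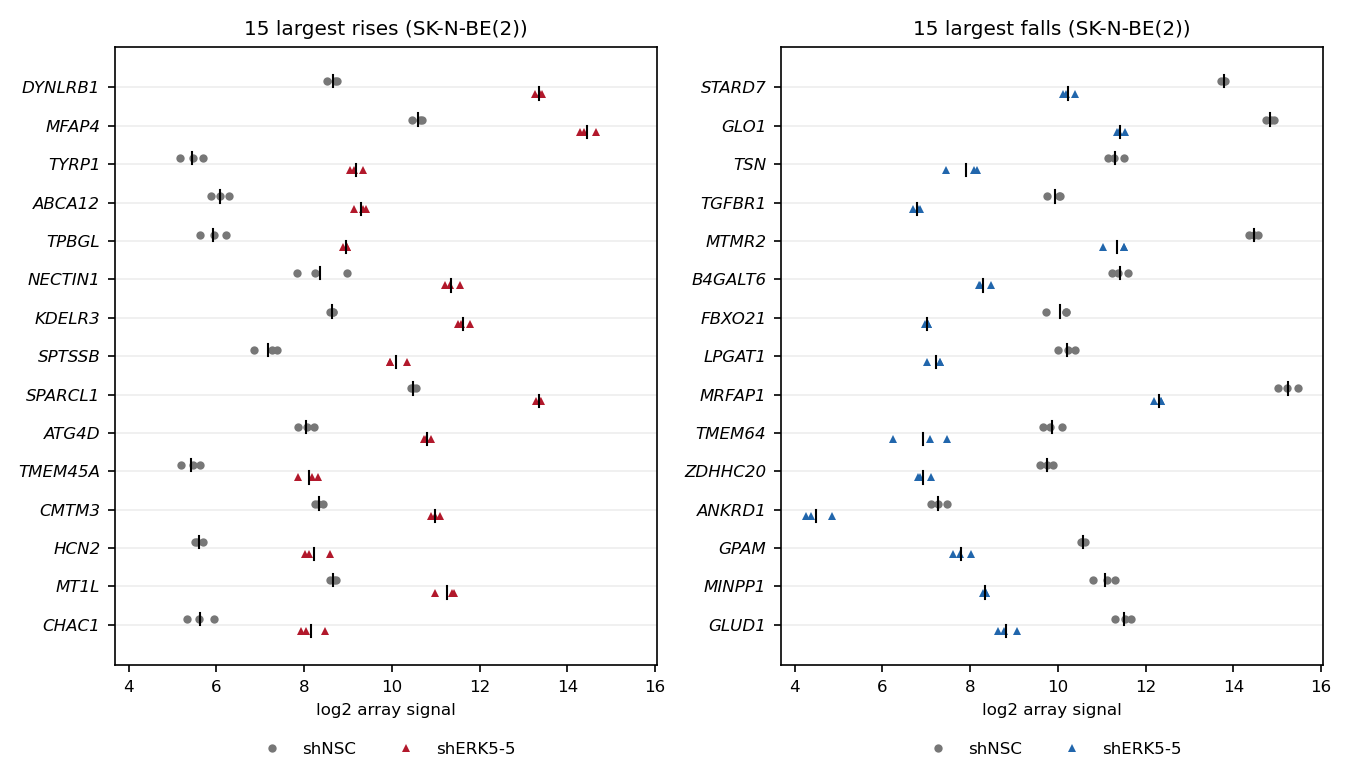
The horizontal axis is the log2 array signal of the 15 genes that rose most (left) and the 15 that fell most (right) with shERK5-5 in SK-N-BE(2). Grey circles are the 3 shNSC arrays, coloured triangles the 3 shERK5-5 arrays and black ticks the group means. Only genes whose groups do not overlap were eligible, so the lack of overlap follows from the choice.

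ATF4 is the transcription factor of the amino acid and integrated stress responses, and it induces genes that take up amino acids, make them and charge tRNA. Of 36 measured genes of this response 18 were called higher and 0 lower, against 6.76% and 6.07% of all probes, and the median change was 0.57. At an unadjusted limma p below 0.05 the counts were 23 higher and 0 lower, against 4829 of all 21448 probes in either direction. With any 1 array left out 13 to 16 members were called higher. CHAC1 rose most, from 5.34, 5.60 and 5.95 to 8.05, 7.92 and 8.47 (2.52 ± 0.21, adjusted p = 2.88e-08). ASNS, asparagine synthetase, went from 11.81, 11.86 and 11.49 to 13.27, 13.15 and 13.06 (2.71-fold, adjusted p = 4.74e-06). SLC7A5, the light chain of a transporter for large neutral amino acids, went from 12.72, 12.95 and 13.12 to 14.65, 14.58 and 14.61 (3.21-fold). In all of these the lowest shERK5-5 array lay above the highest control. VLDLR, a lipoprotein receptor, rose 3.18-fold, the neutral amino acid transporter SLC1A4 2.41-fold and the glycine transporter SLC6A9 2.11-fold.

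The promoters of CHAC1 and ASNS are shown because both carry the composite element at which ATF4 is known to act with a C/EBP partner. They come from RefSeq (GRCh38.p14) and end at the base before the annotated start, 5′ to 3′ on the gene's strand. Capitals mark TGATGNAA read on either strand. The CHAC1 window is chr15:40953221-40953470 on the plus strand, where the element lies on the opposite strand 209 bases before the start. The ASNS window is chr7:97872409-97872518 on the minus strand, upstream of one of the 2 starts listed, with the element 68 bases before it.
CHAC1: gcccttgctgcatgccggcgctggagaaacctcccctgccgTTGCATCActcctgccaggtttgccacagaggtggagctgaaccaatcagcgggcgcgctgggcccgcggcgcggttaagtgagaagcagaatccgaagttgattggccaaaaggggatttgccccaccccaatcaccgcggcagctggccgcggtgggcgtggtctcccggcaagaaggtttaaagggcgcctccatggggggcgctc
ASNS: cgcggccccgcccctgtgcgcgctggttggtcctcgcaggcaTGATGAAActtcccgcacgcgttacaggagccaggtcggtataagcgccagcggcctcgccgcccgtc
The letters were searched in windows of 300 bases that run from 250 bases before to 50 after each start. Of 27305 genes with a window, 4.46% held a match on either strand. Of the 36 response genes 29 had a window and 9 of them a match, 6 of the 16 called higher and 3 of the 13 not called. A match is a description of the letters and shows no binding.

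Aminoacyl-tRNA synthetases load tRNA with amino acids, and several cytosolic ones are induced together with the response above. Of 16 measured, 4 were called higher and 0 lower, with a median change of 0.42 (from 0.27 without shERK5-5 replicate 3 to 0.45 without shERK5-5 replicate 1), and 9 higher and 1 lower had an unadjusted p below 0.05. GARS1, the glycine enzyme, rose from 14.81, 14.85 and 15.09 to 15.79, 15.84 and 15.84 (1.87-fold, adjusted p = 0.00017). AARS1, the alanine enzyme, rose 1.67-fold. Without shERK5-5 replicate 3 the count of higher members was 2.

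Endoplasmic reticulum genes did not move one way. Among 25 chaperones and regulators of the unfolded protein response 9 were called higher and 3 lower (median 0.35), and 5 were higher without shERK5-5 replicate 3. EIF2AK3, which encodes the stress sensor kinase PERK, rose from 8.82, 8.61 and 8.72 to 10.38, 10.56 and 10.29 (3.23-fold, adjusted p = 2.63e-06). XBP1, the transcription factor of the IRE1 branch, rose from 10.27, 10.75 and 10.35 to 11.48, 11.92 and 11.66 (2.35-fold). CREB3L2, a transcription factor released from the membrane by proteolysis, rose 3.74-fold, and HERPUD1, a component of protein degradation at the reticulum, rose 2.89-fold. Against these, DNAJB9, a co-chaperone, fell to 47.1% of control and EDEM1, which directs misfolded glycoproteins to degradation, to 46.7%.

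Metallothioneins are small cysteine-rich proteins that bind zinc and copper, and in the human genome their genes lie together on chromosome 16. This family was chosen after its values were seen, so its counts are a description. Of 12 genes measured 10 were called higher and 0 lower, with a median change of 1.56. At an unadjusted p below 0.05 the counts were 11 and 0. MT2A, the most widely expressed member, went from 9.64, 9.87 and 9.90 to 11.94, 11.27 and 11.95 (1.92 ± 0.20, 3.78-fold, adjusted p = 5.36e-07). MT1X went from 10.07, 9.97 and 10.08 to 11.92, 11.86 and 12.13 (3.81-fold), and MT1E from 5.68, 5.68 and 5.71 to 7.95, 8.55 and 7.97 (5.53-fold). No array of one group reached the range of the other. MT1L (6.01-fold), MT1F (3.60-fold), MT1H (3.18-fold), MT1B (2.72-fold), MT1G (2.66-fold) and MT1IP (1.91-fold) also rose. MT1M was 1.53-fold higher, a call lost without shNSC replicate 1 (adjusted p = 0.228) or 3 (0.0532), or shERK5-5 replicate 2 (0.0902) or 3 (0.149). The more divergent MT3 and MT4 differed by 0.08 ± 0.20 and 0.48 ± 0.20 and were not called. The copies are closely alike in sequence and some are pseudogenes, so signal may be shared between their probes and the single members are uncertain.

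Metallothionein genes are switched on by the zinc sensor MTF1 through metal response elements. The 200 bases before the start of 4 called members are shown because of these elements (GRCh38.p14, chromosome 16, plus strand). Capitals mark TGCACNC or TGCGCNC on either strand, the core of the element. The windows are chr16:56608384-56608583 for MT2A, chr16:56682270-56682469 for MT1X, chr16:56669614-56669813 for MT1H and chr16:56651686-56651885 for MT1B.
MT2A: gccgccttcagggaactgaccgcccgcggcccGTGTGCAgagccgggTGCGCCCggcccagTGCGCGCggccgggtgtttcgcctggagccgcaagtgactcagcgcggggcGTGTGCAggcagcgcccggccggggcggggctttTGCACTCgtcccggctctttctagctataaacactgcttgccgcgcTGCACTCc
MT1X: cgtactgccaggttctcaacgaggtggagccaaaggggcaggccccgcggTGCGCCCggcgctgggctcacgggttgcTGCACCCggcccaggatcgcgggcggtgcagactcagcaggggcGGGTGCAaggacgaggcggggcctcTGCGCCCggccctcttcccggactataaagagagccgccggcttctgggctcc
MT1H: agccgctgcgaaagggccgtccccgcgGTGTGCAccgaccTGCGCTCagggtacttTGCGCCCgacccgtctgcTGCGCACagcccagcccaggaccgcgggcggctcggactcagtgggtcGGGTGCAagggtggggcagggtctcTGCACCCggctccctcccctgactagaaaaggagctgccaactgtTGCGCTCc
MT1B: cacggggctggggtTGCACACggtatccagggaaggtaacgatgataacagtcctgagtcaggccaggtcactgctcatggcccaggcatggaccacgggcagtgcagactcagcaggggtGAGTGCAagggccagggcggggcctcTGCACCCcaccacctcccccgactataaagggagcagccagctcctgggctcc
These stretches held 6 matches for MT2A, 4 for MT1X, 7 for MT1H and 3 for MT1B. In the windows of 300 bases, 33.4% of all 27305 genes held at least 1 match and 0.736% held at least 4. Of the 12 metallothioneins 5 had a window, all 5 held at least 1 match and 3 held at least 4. These were 3 of the 4 called higher, and the 1 not called also held a match. As above, a match shows no binding.

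**Figure D2:**
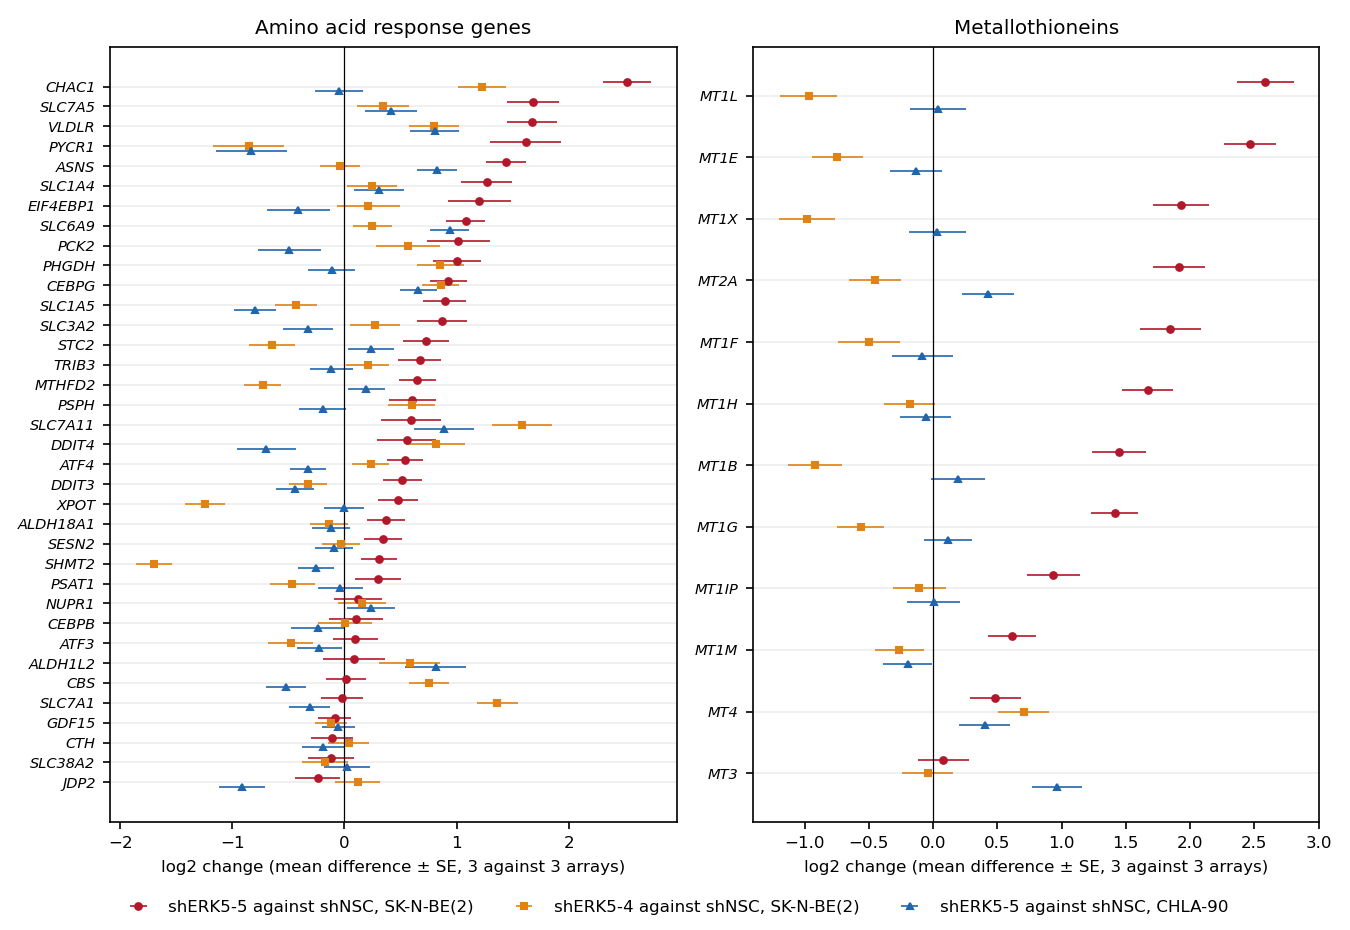
The horizontal axis is the log2 change of each gene of the amino acid response list (left) and each metallothionein (right), with bars of 1 standard error. Red circles are shERK5-5 in SK-N-BE(2), orange squares shERK5-4 in SK-N-BE(2) with the same control arrays, and blue triangles shERK5-5 in CHLA-90, and the red circles of 10 metallothioneins lie to the right of both other symbols with changes from 0.61 to 2.59.

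Of 58 G1/S and replication genes 4 were called higher and 9 lower (median -0.10). CDK6, a kinase that drives exit from G1, fell most, from 12.26, 12.33 and 12.15 to 9.54, 9.65 and 9.95, or 17.3% of control (-2.53 ± 0.18, adjusted p = 1.93e-09). CDC6, a licensing factor of replication origins, fell from 11.72, 11.99 and 11.71 to 10.04, 10.28 and 10.40, or 33.8%. CHAF1B, a histone chaperone of replication, fell to 33.5% and TYMS, thymidylate synthase, to 45.1%. GINS3 and GINS1, subunits of the replicative helicase, rose 2.70-fold and 1.87-fold. Without shNSC replicate 2 the count of lower members was 5.

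Of 46 genes of G2/M and mitosis 13 were called higher and 1 lower (median 0.39). The shERK5-5 arrays lay wholly above the controls for 26 and wholly below for 5, against 15.7% and 14.2% of all probes. BIRC5, survivin, which acts at the centromere and midzone, rose from 9.81, 9.11 and 9.58 to 11.11, 11.23 and 11.42 (3.37-fold, adjusted p = 9.95e-06). KIF2C, a microtubule-depolymerising kinesin of the centromere, rose from 8.39, 7.72 and 8.25 to 9.69, 9.97 and 9.63 (3.12-fold). CDC25B, a phosphatase that activates CDK1, rose from 11.26, 11.01 and 11.26 to 12.81, 12.70 and 12.67 (2.93-fold). The gap between the groups exceeded the spread within either in all of them. The transcription factor MYBL2 rose 2.30-fold and KIF23, a kinesin of cytokinesis, 2.29-fold. The lower gene was AURKA, the Aurora A kinase, which fell from 12.08, 12.20 and 12.17 to 10.97, 11.25 and 11.20, or 49.7%. Without shERK5-5 replicate 3 the count of lower members was 2.

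Of 20 genes of homologous recombination and Fanconi repair 1 was called higher and 1 lower (median 0.01, from -0.022 without shNSC replicate 2 to 0.052 without shNSC replicate 1), and the higher count was 0 without any 1 of the 6 arrays. The lower one, FANCL, the ubiquitin ligase of the Fanconi pathway, fell to 45.7% of control. The lower count was 2 without shNSC replicate 2.

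**Figure D3:**
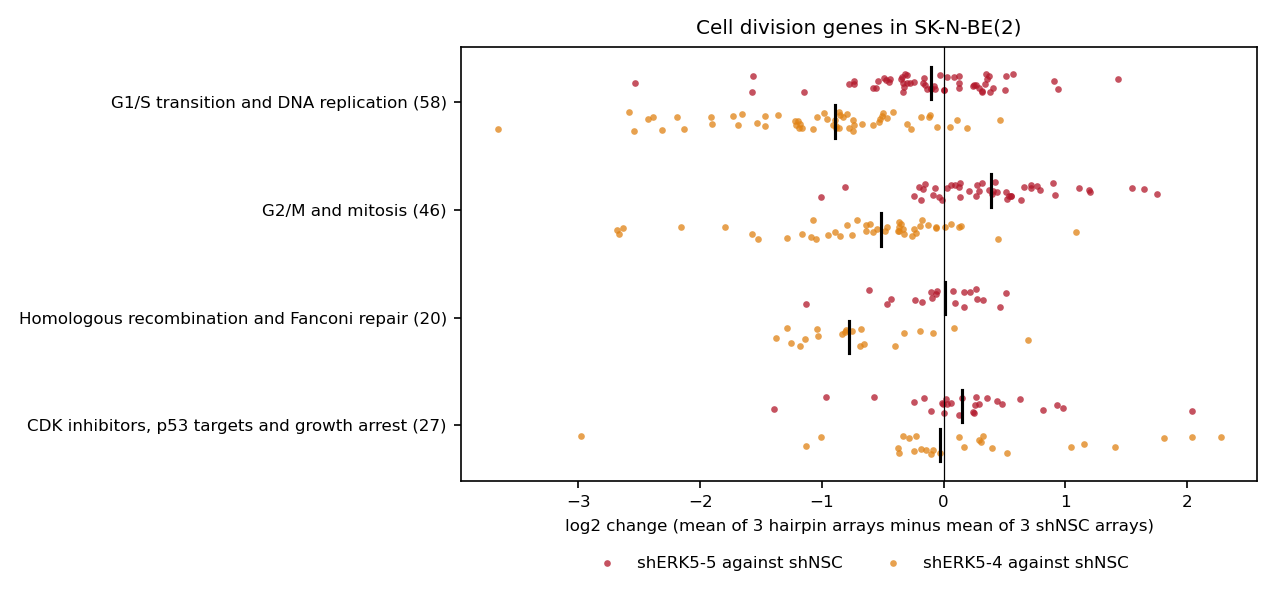
The horizontal axis is the log2 change against the same 3 shNSC arrays in SK-N-BE(2). Each point is 1 gene of the named list (number of measured genes in brackets), red for shERK5-5 and orange for shERK5-4, and the black bars are medians, which for shERK5-5 are -0.10, 0.39, 0.01 and 0.15 from top to bottom.

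Of 27 CDK inhibitors, p53 targets and growth arrest genes 6 were called higher and 2 lower (median 0.15, from 0.13 without shNSC replicate 2 to 0.27 without shNSC replicate 3), and 3 were higher without shNSC replicate 2. MDM2, the ubiquitin ligase that restrains p53, rose from 7.70, 7.30 and 7.80 to 9.31, 9.76 and 9.85 (4.11-fold, adjusted p = 2.88e-08). CCNG1, cyclin G1, another p53 target, rose 1.97-fold. CDKN1A, the best known p53 target, had overlapping arrays, 3.70, 3.76 and 4.43 against 4.02, 4.93 and 4.25, and was not called (0.44 ± 0.25, adjusted p = 0.326). CDKN1B, which encodes the CDK inhibitor p27, rose from 10.39, 10.60 and 10.53 to 11.43, 11.40 and 11.49 (1.91-fold). TP53INP1, a p53-induced nuclear protein, fell to 38.0% of control, and CCNG2, cyclin G2, a gene of quiescent cells, to 51.2%.

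MYCN is the amplified oncogene of this line, and with its partner MAX it drives growth and proliferation genes. MYCN fell from 17.22, 17.12 and 17.06 to 16.36, 16.29 and 16.34, which left 57.3% of the control signal (-0.80 ± 0.17, adjusted p = 0.00221). The groups did not overlap. Of 17 measured genes of the MYCN network 3 were called higher and 3 lower (median -0.08, from -0.18 without shNSC replicate 1 to 0.022 without shERK5-5 replicate 2). AURKA, which stabilises N-Myc protein, fell as given above. FBXW7, the ubiquitin ligase adaptor that marks N-Myc for degradation, rose 1.75-fold, and the receptor tyrosine kinase ALK rose from 6.00, 6.64 and 6.10 to 7.61, 7.05 and 7.89 (2.41-fold). LIN28B, an inhibitor of let-7 processing, rose 2.00-fold. MAX differed by -0.08 ± 0.17 and was not called. MYC had low signals with and without the hairpin, 3.16, 3.93 and 3.38 against 3.19, 3.11 and 3.36.

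Of 34 genes of MAPK output and feedback 6 were called higher and 3 lower (median 0.04, from -0.075 without shNSC replicate 1 to 0.090 without shNSC replicate 3). NR4A1, an immediate early nuclear receptor, rose from 8.86, 8.75 and 8.71 to 10.04, 10.04 and 10.55 (2.71-fold, adjusted p = 1.23e-05). The dual-specificity phosphatases that switch off MAP kinases rose, DUSP8 3.23-fold, DUSP5 2.47-fold and DUSP6 1.95-fold. DUSP6 read 11.61, 11.70 and 11.72 with shNSC and 12.67, 12.60 and 12.64 with shERK5-5. SRF, the serum response factor, fell to 35.8% of control. The count of lower members was 1 without shNSC replicate 2 or 3 or shERK5-5 replicate 2.

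Sterol and fatty acid synthesis genes gave 1 higher and 3 lower of 29 (median -0.04, from -0.11 without shERK5-5 replicate 3 to 0.005 without shNSC replicate 1), and the higher count was 0 without shNSC replicate 1, 2 or 3 or shERK5-5 replicate 2 or 3. SCD, which makes monounsaturated fatty acids, fell from 14.60, 14.92 and 14.79 to 13.05, 12.86 and 13.13, or 29.6% (adjusted p = 4.69e-08). SQLE, squalene epoxidase, fell from 12.68, 12.91 and 12.79 to 11.20, 11.31 and 11.14, or 33.5%. HMGCS1, which acts at the start of the mevalonate pathway, fell to 47.4%. Among 25 genes of ribosome biogenesis 0 were called higher and 2 lower (median -0.24), and at an unadjusted limma p below 0.05 the counts were 1 and 9. NOLC1, a nucleolar phosphoprotein, fell from 13.58, 13.48 and 13.70 to 12.16, 12.17 and 12.38, or 39.2%. The lower count was 1 without shNSC replicate 3 or shERK5-5 replicate 1 or 2.

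Of 40 lysosome and autophagy genes 10 were called higher and 4 lower (median 0.23). The higher count was 6 without shNSC replicate 2, and the lower count was 2 without shNSC replicate 1 or 2 or shERK5-5 replicate 1 or 2. The receptors that carry mannose 6-phosphate tagged enzymes to lysosomes moved in opposite directions. M6PR, the cation-dependent receptor, rose from 10.84, 11.15 and 10.45 to 12.78, 12.88 and 13.01 (4.22-fold, adjusted p = 4.80e-08). IGF2R, the cation-independent receptor, fell from 11.68, 11.70 and 11.85 to 9.72, 9.86 and 9.82, or 26.0% (adjusted p = 6.16e-09). ULK1, the kinase that starts autophagy, rose from 8.06, 7.38 and 7.52 to 9.68, 9.53 and 9.70 (3.95-fold). ATG9A, its membrane carrier, rose 2.78-fold, while ATG12, a ubiquitin-like conjugation factor, fell to 39.2%.

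NRF2 is the transcription factor of the antioxidant response. Of 28 genes of that response, glutathione metabolism and ferroptosis control 7 were called higher and 1 lower (median 0.32). The largest rise among them was that of CHAC1 (2.52 on the log2 scale), which is counted in the amino acid response list as well. NQO1, a quinone reductase and classical NRF2 target, rose from 11.76, 11.61 and 11.96 to 13.22, 13.55 and 13.32 (3.00-fold, adjusted p = 4.02e-07). TKT, transketolase, rose 2.14-fold, and NFE2L2, which encodes NRF2, 1.86-fold. SRXN1, sulfiredoxin, rose 1.57-fold from the low signals of 3.76, 3.53 and 3.35. The lower count was 0 without any single shERK5-5 array. Of 32 hypoxia and glycolysis genes 5 were called higher and 0 lower (median 0.19), with 10 and 1 at an unadjusted p below 0.05. The count was 3 without shNSC replicate 1 or 2 or shERK5-5 replicate 1 or 3, and without shERK5-5 replicate 2 the count of lower members was 1. GPI, a glycolytic isomerase, rose 3.10-fold and VEGFA 1.87-fold.

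**Figure D4:**
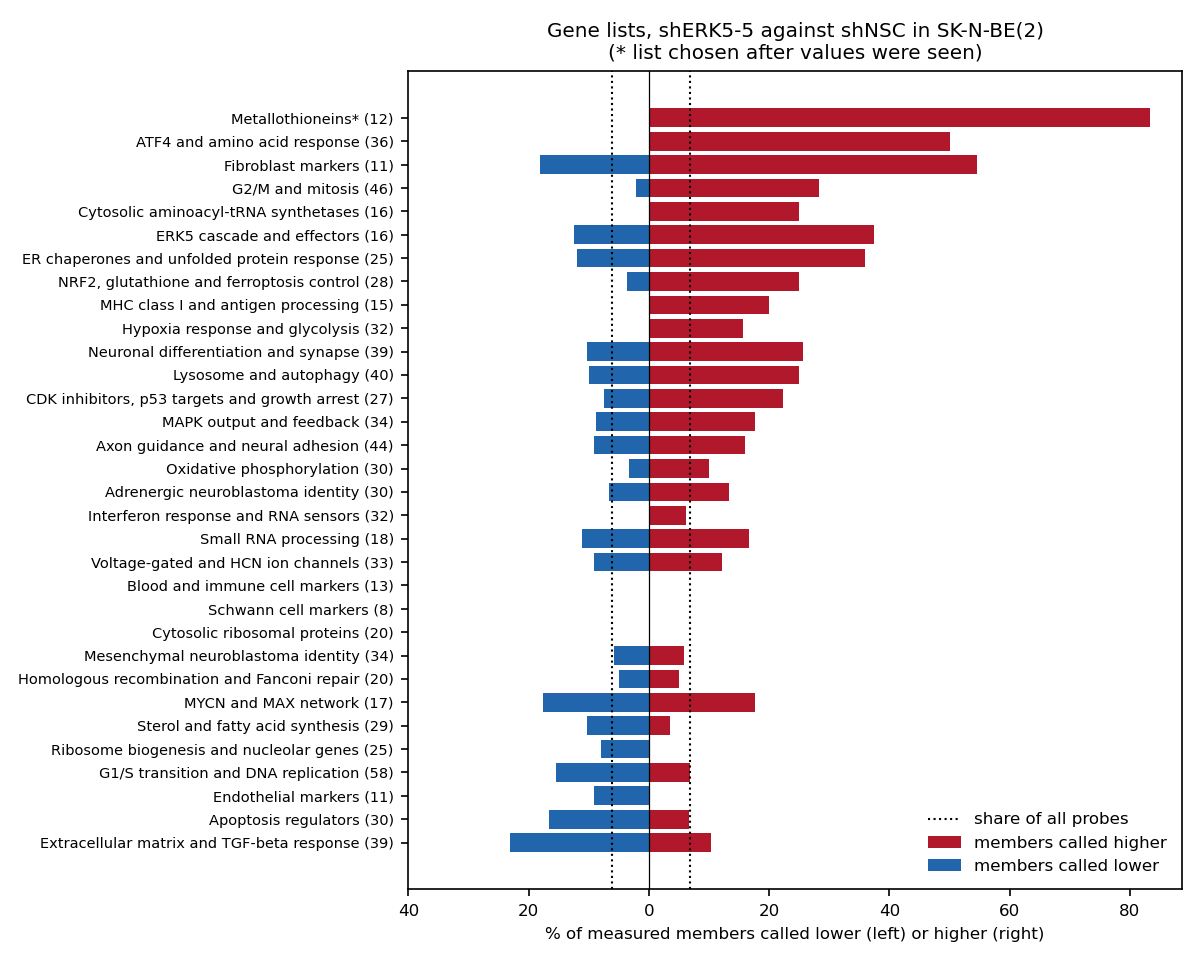
The horizontal axis is the percentage of measured members of each gene list (number in brackets) that was called higher (red, right) or lower (blue, left) with shERK5-5 in SK-N-BE(2). Dotted lines are the shares over all 21448 probes, 6.76% and 6.07%. The asterisk marks the metallothioneins, which were chosen after their values were seen. The other lists were chosen with earlier results of these data known, so all bars are a description.

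Neuronal differentiation and synapse genes gave 10 higher and 4 lower of 39 (median 0.24). With any 1 array left out 8 or 9 were higher, and the lower count was 2 without shNSC replicate 3 or shERK5-5 replicate 2. DCX, doublecortin, a microtubule protein of migrating neurons, rose from 9.78, 9.51 and 9.30 to 11.88, 11.96 and 11.93 (5.25-fold, adjusted p = 1.39e-09). ELAVL3, a neuronal RNA-binding protein, rose from 5.86, 6.10 and 6.46 to 7.94, 8.28 and 8.76 (4.55-fold). MAPT, which encodes tau, rose 2.56-fold and CELF3, a neuronal splicing regulator, 2.54-fold. The neurofilament subunits split. NEFM, the medium chain, rose from 13.34, 13.32 and 13.52 to 15.46, 15.45 and 15.29 (4.02-fold), while NEFL, the light chain, fell from 10.85, 10.22 and 11.03 to 8.46, 9.11 and 9.41, or 30.6%.

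Adrenergic identity genes gave 4 higher and 2 lower of 30 (median 0.14, from 0.068 without shERK5-5 replicate 3 to 0.17 without shERK5-5 replicate 2), and the higher count was 2 without shNSC replicate 2 or 3 or shERK5-5 replicate 2 or 3. KLF7, a transcription factor, rose from 14.97, 15.02 and 14.91 to 15.81, 16.16 and 16.12 (2.09-fold, adjusted p = 3.71e-05). SLC6A2, the noradrenaline transporter, fell from 14.06, 14.44 and 14.08 to 13.28, 13.24 and 13.47, or 55.0%. The core factors HAND2 (0.17 ± 0.19) and ISL1 (-0.43 ± 0.19, adjusted p = 0.173) were not called. Of 34 mesenchymal identity genes 2 were higher and 2 lower (median 0.07, from -0.036 without shNSC replicate 2 to 0.16 without shNSC replicate 3). The higher count was 1 without shNSC replicate 2 or 3 or shERK5-5 replicate 2, and 0 without shNSC replicate 1 or shERK5-5 replicate 1 or 3. FN1, fibronectin, fell from 8.99, 9.16 and 8.99 to 8.03, 8.15 and 7.88, or 49.1%, and NOTCH3 fell to 50.2%.

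Among 44 genes of axon guidance and neural adhesion 7 were called higher and 4 lower (median 0.10, from 0.072 without shNSC replicate 3 to 0.18 without shNSC replicate 1), with 4 higher without shNSC replicate 2 and 3 without shERK5-5 replicate 3. SEMA3A, a secreted repellent, fell from 12.91, 13.28 and 12.90 to 11.16, 11.33 and 11.50, or 30.8% (adjusted p = 1.29e-07). NRP1, a coreceptor of SEMA3A, also fell to 30.8%, from 11.34, 11.61 and 11.72 to 9.75, 9.80 and 10.02. PLXNA2, a semaphorin receptor, rose 2.48-fold and the adhesion molecule NCAM2 2.45-fold. Of 33 voltage-gated and HCN channel genes 4 were higher and 3 lower (median 0.10, from 0.018 without shERK5-5 replicate 2 to 0.14 without shNSC replicate 1), and the median was -0.05 with dim probes left out. HCN2 rose as given above and KCNH2, a potassium channel, rose 2.04-fold. The sodium channel subunits moved both ways, SCN3B 1.88-fold higher, SCN3A at 36.5% and SCN8A at 43.8% of control.

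Extracellular matrix and TGF-beta response genes gave 4 higher and 9 lower of 39, and 8 or 9 were lower with any 1 array left out. The median change of 0.05 was below 0 without shNSC replicate 1 or 2 or shERK5-5 replicate 1 or 3. Beside TGFBR1, the falls included FBN1, fibrillin, from 8.19, 8.06 and 8.19 to 6.66, 6.42 and 6.27 (30.8%). THBS1, thrombospondin, fell to 39.5%. The largest rise was that of MFAP4, given above, and the rises also held secreted matrix proteoglycans. DCN, decorin, went from 11.10, 10.97 and 11.16 to 13.32, 13.25 and 13.29 (4.63-fold, adjusted p = 6.73e-10), and LUM, lumican, from 14.66, 14.53 and 14.27 to 15.73, 15.76 and 15.75 (2.39-fold). DCN and LUM also mark fibroblasts, and of 11 fibroblast markers 6 were called higher and 2 lower. The mean log2 signal over the fibroblast markers was 9.10 to 9.20 on the control arrays and 9.54 to 9.55 on the shERK5-5 arrays, and 1 marker lay below the 25th percentile of every array. PDGFRA rose 1.95-fold, while the contractile markers fell, ACTA2 from 10.36, 9.83 and 10.40 to 8.37, 8.81 and 8.34 (31.0%) and TAGLN to 45.0%. The count of higher markers was 3 without shNSC replicate 1 or shERK5-5 replicate 1 or 3. The part of these markers in the matrix result was not tested, and in bulk RNA fewer cells of a type and less RNA per cell cannot be told apart.

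Markers of Schwann, blood and immune, and endothelial cells gave few calls, against 12.8% of all probes in either direction. Lists this small cannot be told apart from that share. Below the 25th percentile of every array compared lay 4 of the Schwann, 6 of the blood and immune and 2 of the endothelial markers. Of 8 Schwann cell markers 0 were called in either direction, also at an unadjusted limma p below 0.05. Of 13 blood and immune markers 0 were called, with 1 higher and 1 lower at an unadjusted p below 0.05, and of 11 endothelial markers 0 were higher and 1 lower.

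Of 30 apoptosis regulators 2 were called higher and 5 lower (median 0.02, from -0.040 without shERK5-5 replicate 3 to 0.082 without shERK5-5 replicate 1). BCL2, the antiapoptotic founder of its family, fell from 10.38, 10.50 and 10.63 to 9.05, 9.21 and 9.74, or 44.4% (adjusted p = 4.87e-05). BCL2L11, which encodes the proapoptotic protein BIM, fell to 49.2%, and the inhibitors XIAP and BIRC2 to 54.7% and 57.4%. BIRC5, the member of this list with the smallest p, rose by 1.75 on the log2 scale (limma adjusted p = 9.95e-06). APAF1, the scaffold of the apoptosome, rose from 7.64, 7.73 and 7.57 to 8.47, 8.84 and 8.26 (1.84-fold). Of 18 small RNA processing genes 3 were higher and 2 lower (median 0.14, from 0.063 without shNSC replicate 2 to 0.22 without shERK5-5 replicate 1). The Argonaute genes differed in direction. AGO1 rose 2.45-fold and AGO2 2.13-fold, while AGO3 fell from 9.83, 9.98 and 10.04 to 8.69, 8.63 and 8.77, or 41.9%. XPO5, which exports microRNA precursors from the nucleus, fell to 53.3%.

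Of 20 cytosolic ribosomal protein genes 0 were called in either direction (median -0.02, from -0.062 without shERK5-5 replicate 1 to 0.021 without shNSC replicate 2), with 0 higher and 1 lower at an unadjusted limma p below 0.05. Of 30 oxidative phosphorylation genes 3 were higher and 1 lower. COX5A rose 1.51-fold, and the higher count was 1 without shNSC replicate 1 or 2 or shERK5-5 replicate 3, the lower count 0 without shNSC replicate 2. Of 32 interferon response genes 2 were higher and 0 lower, with 3 and 1 at an unadjusted p below 0.05. The higher count was 0 without shNSC replicate 1 or 2 or shERK5-5 replicate 2 or 3, and 1 without shERK5-5 replicate 1. Of 15 genes of MHC class I and antigen processing 3 were higher and 0 lower, with 3 and 1 at an unadjusted p below 0.05, and 1 was higher without shNSC replicate 2 or shERK5-5 replicate 1 or 3. ERAP1, a peptidase that trims antigens, rose 1.75-fold.

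The other ERK5 hairpin was compared directly. In a limma test of shERK5-5 against shERK5-4 in the same cells, which uses no control arrays but shares the shERK5-5 arrays with the results above, 5246 probes were called, 24.5% of those tested, with 2708 higher (12.6%) and 2538 lower (11.8%). MAPK7 differed between the hairpins by 0.06 on the log2 scale and was not among them (adjusted p = 0.897). Its change against shNSC was -0.64 with shERK5-5 and -0.69 with shERK5-4. Of the 58 G1/S genes 42 were higher with shERK5-5 than with shERK5-4 and 1 was lower. The same held for 36 of the 46 G2/M genes, with 0 lower. With shERK5-4 against shNSC 23.9% of probes were called. The changes of both hairpins against shNSC share their control arrays and are given side by side. The median change of the G1/S genes was -0.10 with shERK5-5 and -0.89 with shERK5-4, and that of the G2/M genes was 0.39 and -0.51. Sterol and fatty acid genes were higher with shERK5-5 in 17 of 29 and lower in 1, homologous recombination genes in 13 of 20 and 1, and MAPK output genes in 19 of 34 and 1. For the amino acid response 17 of 36 were higher and 3 lower. Of the 12 metallothioneins 10 were higher and 0 lower, with a median difference of 2.16 on the log2 scale.

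Some genes called with shERK5-5 lay on opposite sides of the control with the hairpins. The 6 genes in each direction named here were chosen for the largest difference between the hairpins, so their wide separation follows from the choice. Other genes moved the same way with shERK5-5 and shERK5-4, such as NECTIN1 (2.99 and 3.61) and MDM2 (2.04 and 2.28). Calls shared by the hairpins were not counted. HGF, the ligand of the receptor MET, read 10.79, 10.97 and 11.21 with shERK5-5, a rise of 2.06 over shNSC, against a change of -3.05 with shERK5-4. The direct difference was 5.11 (limma adjusted p = 6.33e-14). The arrays of the hairpins were far apart, with the controls between them. SPARCL1 showed 2.86 and -1.87, TMEM9B 1.62 and -3.01, and BIRC5 1.75 and -2.68. PPIL1, a spliceosomal isomerase, showed 0.66 and -4.24. ALKBH5, an RNA demethylase, showed 0.82 and -3.62. The call of PPIL1 against shNSC was lost without any 1 of the 6 arrays, with adjusted p up to 0.131. ALKBH5 did not pass when shNSC replicate 1 or 2 or shERK5-5 replicate 3 was dropped, with adjusted p up to 0.138. In the other direction PTBP2, a neuronal splicing repressor, showed -0.94 with shERK5-5 and 3.78 with shERK5-4. TGFBR1 showed -3.15 and 0.64, CHML -1.94 and 1.73, SHD -1.30 and 2.33, STC1 -1.99 and 1.61, and SPAST, a microtubule-severing enzyme, -1.93 and 1.60.

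The same hairpin was also measured in CHLA-90 against its own control arrays, so those values share no array with the SK-N-BE(2) comparison. There 2721 probes were called, 12.7% of those tested, with 1255 higher (5.85%) and 1466 lower (6.84%), and 1720 were called without CHLA-90 shNSC replicate 3. Probes called the same way in both lines numbered 982, of which 417 were higher (1.94% of all probes) and 565 lower (2.63%), and 72 were called in opposite directions. The shared higher probes made up 28.8% of the SK-N-BE(2) higher calls and 33.2% of those of CHLA-90. The shared lower probes made up 43.4% and 38.5%. Of 51 named probes that fell beyond -2 on the log2 scale in SK-N-BE(2), 46 were also called lower in CHLA-90, with a median change there of -1.60. Of 52 that rose beyond 2, 34 were also called higher in CHLA-90, with a median of 1.03.

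The genes with the largest changes shared by the lines included several of the leading ones above. DYNLRB1 rose by 4.69 in SK-N-BE(2) and 3.28 in CHLA-90, NECTIN1 by 2.99 and 3.69, ATG4D by 2.75 and 2.44, MFAP4 by 3.84 and 2.13, and ANKRD52 by 2.33 and 2.29. ELAVL3 rose by 2.19 and 2.28. STARD7 changed by -3.55 and -3.35, TMEM64 by -2.93 and -2.89, GLO1 by -3.41 and -2.41, ZDHHC20 by -2.82 and -2.30 and GLUD1 by -2.67 and -2.16. GNG10, a G protein gamma subunit whose gene overlaps a read-through transcript, changed by -2.63 and -2.24. In CHLA-90 STARD7 read 13.83, 13.81 and 14.36 with shNSC and 10.56, 10.43 and 10.95 with shERK5-5. The groups did not overlap there either, and the difference between the lines was not called (adjusted p = 0.740).

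**Figure D5:**
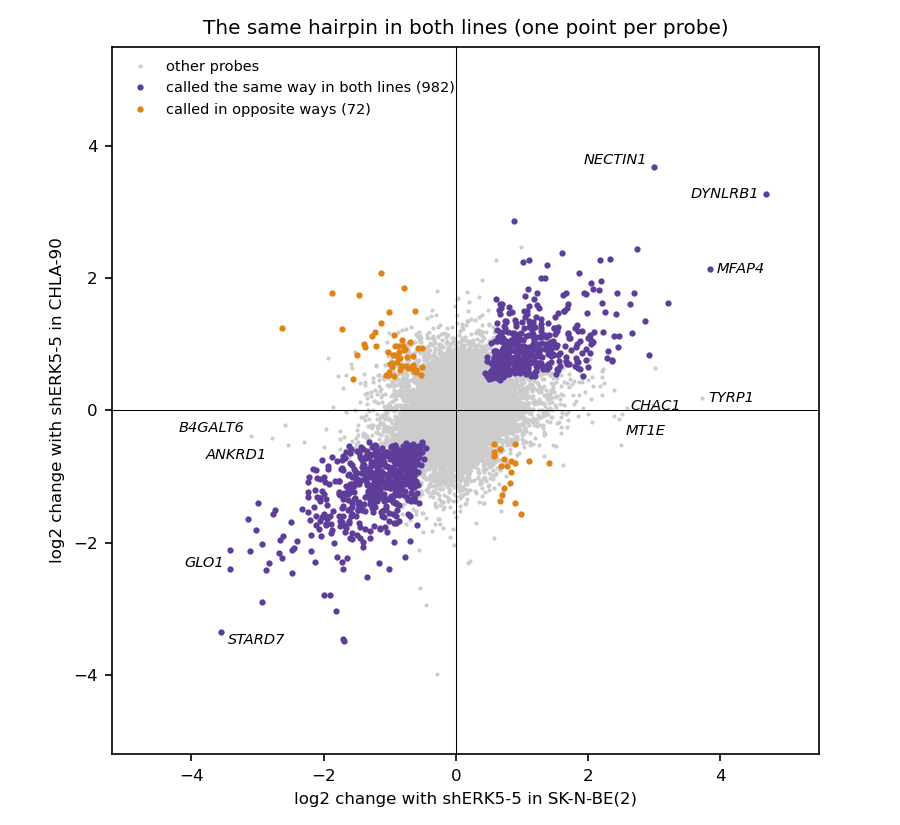
Each point is 1 of the 21448 probes, with its log2 change with shERK5-5 in SK-N-BE(2) on the horizontal axis and in CHLA-90 on the vertical axis. The 982 purple points were called the same way in both lines and the 72 orange points in opposite ways, and TYRP1, CHAC1 and MT1E lie far to the right at a change near 0 in CHLA-90.

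A limma test of the difference between the lines called 1156 probes (5.39%), with the change more positive in CHLA-90 for 515 (2.40%) and more negative for 641 (2.99%). The count was 643 without SK-N-BE(2) shNSC replicate 2, 674 without SK-N-BE(2) shERK5-5 replicate 3 and 651 without CHLA-90 shNSC replicate 3. TYRP1 rose by 3.72 in SK-N-BE(2) and differed by 0.19 in CHLA-90 (adjusted p of the difference = 9.88e-07). KDELR3 showed 2.99 and 0.09, CAPN6, a calpain without protease activity, 2.50 and -0.53, and CHAC1 2.52 and -0.05. MT1E showed 2.47 and -0.13, and of the 12 metallothioneins 8 had a called difference between the lines, all towards a smaller change in CHLA-90. Of the 36 amino acid response genes 10 had a called difference, again all towards a smaller or more negative change in CHLA-90. ITGB5, an integrin beta subunit, rose by 0.98 in SK-N-BE(2) and changed by -1.57 in CHLA-90. Among genes that fell in SK-N-BE(2), B4GALT6 showed -3.10 and -0.39, ANKRD1 -2.78 and -0.42, and the integrin ITGB1 -2.58 and -0.23. ITGB1 read 14.90, 15.07 and 15.03 with shNSC in SK-N-BE(2) and 12.36, 12.44 and 12.46 with shERK5-5, so that 16.7% remained. SEMA3A showed -1.70 and 0.34, PGAP1 -1.55 and 0.48, and MYCN -0.80 and 0.97 (adjusted p of the difference = 0.000163). GPR85 showed -0.62 and 1.51, but in SK-N-BE(2) it did not pass when shNSC replicate 1 (adjusted p = 0.0635) or shERK5-5 replicate 1 (0.0674) was dropped.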

How the data were processed

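Total RNA of 18 biotin-labelled arrays was measured. The authors deposited 1 log2 signal per probe for each array, already summarised across arrays; the base of the log was read from the range of the values, and the summarisation software is not given in the sources used here. Groups came from the sample titles. A model with 1 mean per group was fitted over all 18 arrays and 21448 probes with limma 3.58.1 in R 4.3.3, with Benjamini-Hochberg adjustment over all probes and a threshold of 0.05 with no minimum fold. Fold and percent values are powers of the log2 difference. Of the probes, 17709 had 1 gene symbol in the platform annotation and 3739 had none. A gene with several probes was represented by the one with the highest mean. The fit was tested on simulated data. Standard errors are moderated by limma, and 3 arrays a group limit the precision.

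The members and gene lists were chosen with earlier results of these data known. Genes were named as the 15 largest changes in each direction without overlap between groups, up to 6 list members with the smallest p, members whose absence from the calls is described, and 6 genes in each direction for each comparison of hairpins or lines. MYCN in the line comparison and the family members of the metallothioneins were named after their values were seen. Promoters were read from RefSeq (GRCh38.p14) by symbol. Alternatives were array weights, trend and robust variance, centring and quantile normalization, fewer arrays in the fit, dim probes left out, the replicate number as a block, a minimum fold of 1.5, a threshold of 0.01 and leaving out each array.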

Additional observations from a re-analysis of the deposited data

Results flagged for a closer look

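The change with shERK5-5 differed between SK-N-BE(2) and CHLA-90 for 32 genes among those named by the size of their change. The limma test of the difference itself was used, at an adjusted p below 0.05. Over all probes 5.39% passed that test, a share not matched to genes chosen by size. Other genes named above also passed that test and are not listed. The 6 genes in each direction named for the line comparison were chosen by this same test, so their passing was set in advance. The others were ranked on SK-N-BE(2) shERK5-5 values, which also enter the difference. That ranking favours smaller changes in CHLA-90, so the list is a description. Values are the CHLA-90 change minus the SK-N-BE(2) change on the log2 scale. A negative value is therefore a less positive or more negative change in CHLA-90, and some genes changed direction.

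Among genes that rose in SK-N-BE(2), the pigment enzyme TYRP1 differed by -3.53, CAPN6 by -3.02 and the reticulum receptor KDELR3 by -2.90. The metallothioneins MT1E and MT1L differed by -2.60 and -2.55, CHAC1 by -2.56 and the integrin ITGB5 by -2.55. TPBGL differed by -2.38, the growth factor HGF by -2.23 and SPTSSB by -2.07. MFAP4 differed by -1.71, ABCA12 by -1.58, SPARCL1 by -1.50, CMTM3 by -1.49, DYNLRB1 by -1.41 and BIRC5 by -1.36.

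Among genes that fell in SK-N-BE(2), B4GALT6 differed by 2.71, ANKRD1 by 2.36 and the integrin ITGB1 by 2.35. GPR85 differed by 2.13, the guidance molecule SEMA3A by 2.04 and PGAP1 by 2.03. LPGAT1 differed by 1.60, TGFBR1 by 1.50, PTBP2 by 1.46 and TSN by 1.30. MINPP1 differed by 1.23, GPAM and FBXO21 by 1.21 each, CHML by 1.10, SPAST by 1.04 and GLO1 by 1.01. The calls of the difference for GLO1 (adjusted p = 0.0530) and BIRC5 (0.0592) were lost without SK-N-BE(2) shNSC replicate 2.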

How the results depend on the processing

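At a threshold of 0.01 the calls with shERK5-5 in SK-N-BE(2) numbered 1733, those in CHLA-90 1335, those of the difference between lines 382, those shared by the lines 559 and the members of gene lists 133 in place of 201, and MAPK7 (-0.64, adjusted p = 0.0319) was not called. A fit of the compared arrays alone called 1612 probes in CHLA-90 and 3187 in SK-N-BE(2), and the cause was not tested. With 1 array left out the calls ranged from 2036 to 2324 for shERK5-5 against shNSC in SK-N-BE(2), from 4475 to 5048 against shERK5-4, from 1720 to 2822 in CHLA-90, from 643 to 1401 between lines and from 766 to 952 for those shared. The list members ranged from 148 to 174 and MAPK7 from -0.80 to -0.53. MT3, not called, changed sign without shNSC replicate 1 (-0.017) and without shERK5-5 replicate 1 (-0.073), and reached 0.23 without shNSC replicate 3.

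Same-numbered arrays of the groups had correlations of their deviations of 0.069, 0.0362 and 0.1468. Differently numbered arrays had values from -0.1088 to 0.0572, and for each shNSC replicate the same-numbered array gave the highest value. The main fit did not take the numbers as pairs, and whether they are pairs was not tested. With the replicate number as a block 2900 probes were called in SK-N-BE(2), 5441 against shERK5-4, 2952 in CHLA-90, 1349 between lines and 1031 shared, and MAPK7 had an adjusted p of 0.0382. Array weights gave 3907 calls in SK-N-BE(2). Dim probes limit what can be called, and the labels do not say whether the triplicates came from separate transductions.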
